A study of Mus musculus with 2 samples.

Results

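The transcription factors that hold hepatocytes in their differentiated state were followed in scRNA-Seq data of hepatocytes from undamaged and regenerating mouse liver. The 9 genes Hnf4a, Nr1i3, Nr5a2, Cebpa, Cebpb, Foxa1, Foxa2, Foxa3 and Prox1 were chosen by name from the 27998 genes listed in the count tables, and all 9 were listed and detected in both libraries. Livers came from C57BL/6 mice on a normal diet, labelled 10 to 12 weeks old, and hepatocytes were released by collagenase perfusion. The 0h library came from undamaged liver, and the PHx48h library from liver 48 h after partial hepatectomy (PHx), in which surgery takes away the larger part of the organ. Each time point was 1 library from 1 mouse. No comparison therefore had a replicate, no test between time points was possible, and differences between mice and the effect of surgery cannot be told apart. In this droplet assay each barcode marks 1 droplet, and a unique molecular identifier (UMI) lets each captured transcript molecule be counted once.

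Hepatocyte identity rests on a small set of DNA-binding proteins that bind each other's genes and share many target genes. The nuclear receptor HNF4A is needed for much of the adult hepatocyte program, FOXA proteins open chromatin at liver enhancers, and C/EBP proteins drive metabolic and acute phase genes. After PHx, hepatocytes re-enter the cell cycle while the liver goes on with its metabolic work.

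The tables held 59202 barcodes in the 0h library, with at least 1183 UMIs each, and 1586 in the PHx48h library, with at least 4578, and no barcode was removed here. The study's methods name filters without thresholds, so its smaller set of filtered cells was not rebuilt, and the barcodes counted here are not called cells. The study kept far fewer cells at 0h, so most 0h barcodes counted here were not among its cells. Barcodes were divided by their share of UMIs from the 13 mitochondrial (mt) genes. Under 2% mt UMIs were found in 52587 barcodes of the 0h library (88.8%) and in 522 of the PHx48h library (32.9%), and over 30% in 3870 (6.54%) and 765 (48.2%). Levels are given in counts per 1000000 (CPM), as UMIs summed over the barcodes of a set and divided by their UMIs of genes other than mt genes (non-mt UMIs). Their 95% intervals are exact Poisson intervals, and those of ratios and shares are exact binomial intervals. All of them cover counting error only. Median depth was 1413 non-mt UMIs per barcode under 2% mt and 1213.5 over 30% mt in the 0h library, against 5271.5 and 4411 in the PHx48h library. The libraries shared 148 barcode sequences, or 9.33% of the PHx48h barcodes, and without them the same number of members was called in both comparisons of time points.

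The label was checked against markers. The summed level of 10 hepatocyte markers was 90070 and 106246 CPM in the 0h barcodes under 2% and over 30% mt, and 72972 and 104016 in the corresponding PHx48h barcodes. The 9 macrophage markers summed to between 25.1 and 34.1 CPM, and the 9 endothelial markers to between 23.9 and 53.5. The 10 stromal markers summed to 183 in the PHx48h barcodes under 2% mt and to between 26.1 and 31.4 in the other sets, and the 6 listed T and NK cell markers were at 0 in both PHx48h sets. The 5 erythroid markers, of red blood cells, summed to 246 in the 0h barcodes under 2% mt and to 54.5 over 30% mt, and to 27.7 and 27.6 in the PHx48h sets. All 5 were called lower at PHx48h under 2% mt, and the part of red cell RNA in the results was not tested. Barcodes with at least 5 UMIs and at least 0.5% of non-mt UMIs from non-hepatocyte markers are called marker-rich here. There were 524 in the 0h library and 95 in the PHx48h library, and they are given as a comparison set. Hepatocyte markers still summed to 50036 and 28121 CPM in them. Whether these transcripts came from free RNA or from hepatocytes in the same droplet was not tested.

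A ratio between sets was called when it was at least 2-fold with at least 10 UMIs over both sets. Of the 9 members, 0 rose and 3 fell (Cebpb, Foxa1, Foxa2) from 0h to PHx48h in the barcodes under 2% mt, where 25.4% of all genes tested were called higher and 17.2% lower. Over 30% mt, 3 rose (Hnf4a, Foxa3, Prox1) and 0 fell, against 32.5% and 6.33% of all genes. Between barcodes over 30% and under 2% mt, 1 member (Nr1i3) was called higher in the 0h library, where 17.2% of genes were, and 0 lower, where 9.04% were. In the PHx48h library 8 of 9 were called higher, all but Foxa3, where 37.4% of genes were, and 0 lower, where 6.74% were. Among genes with at least 100 UMIs, the shares called higher and lower were 21.4% and 21.4% in the first of these comparisons, 30.3% and 5.5% in the second, 13.7% and 9.68% in the third and 31.5% and 7.69% in the fourth. The median log2 ratio of the members over these 4 comparisons was -0.16, 0.61, 0.13 and 1.26, beside 0.06, 0.57, 0.06 and 0.66 over all genes tested. The comparisons share their sets in pairs, so that a low PHx48h level under 2% mt enters both the first and the fourth.

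The median of all genes was itself above 0 in the PHx48h barcodes over 30% mt. Scaling by trimmed mean of M-values (TMM) factors, which sets most genes to no change, brought the 4 all-gene medians to between -0.03 and 0.08 and those of the members to -0.31, 0.05, -0.04 and 0.68. With TMM factors 3 of 9 members (Cebpb, Nr1i3, Prox1) were called higher over 30% mt in the PHx48h library. Of all genes, 18% were then called higher in that comparison and 18.2% lower. From 0h to PHx48h over 30% mt, 1 member (Prox1) was then called higher and 2 (Foxa1, Foxa2) lower, where 16.5% and 15% of all genes were. Ratios that change sign with these factors are named with their genes.

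**Figure D1:**
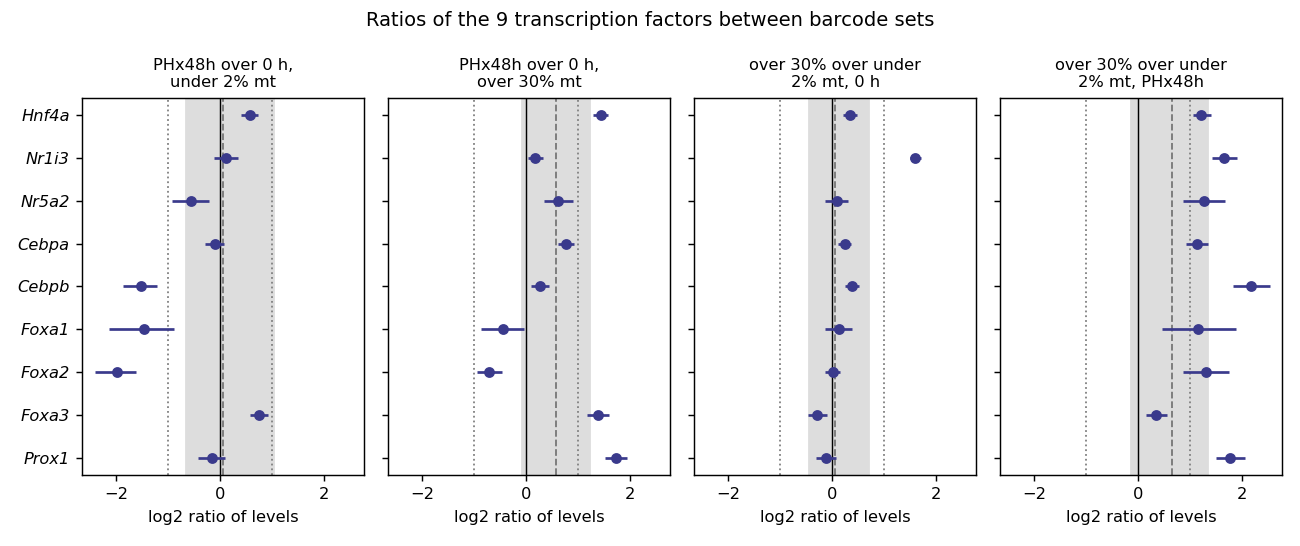
The log2 ratio of each of the 9 genes (rows) is plotted for the 4 comparisons (panels), with points for ratios, horizontal bars for 95% counting intervals, dotted lines at 2-fold, a dashed line at the median of all genes and a grey band for their interquartile range. Cebpb, Foxa1 and Foxa2 lie left of the grey band in the first panel at -1.53, -1.47 and -1.99, and Prox1 at 1.73, Hnf4a at 1.43 and Foxa3 at 1.38 lie right of it in the second. With TMM factors the ratio changes sign for Nr1i3 in panels 1 and 2, for Cebpb in panel 2, for Foxa1, Foxa2 and Nr5a2 in panel 3 and for Foxa3 in panel 4.

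Hnf4a encodes the nuclear receptor at the center of the hepatocyte network and lies on GRCm38 chr2:163506808-163572910, plus strand. Its level was 75.5 CPM in the 0h barcodes under 2% mt (5944 UMIs, 73.6 to 77.4) and 95.9 over 30% mt (554 UMIs, 88.1 to 104). The PHx48h levels were 112 under 2% mt (350 UMIs, 100 to 124) and 259 over 30% mt (1323 UMIs, 245 to 274). The PHx48h barcodes over 30% mt thus stood highest, and the intervals of the middle pair of sets overlapped. From 0h to PHx48h the log2 ratio was 0.56 (0.40 to 0.72) under 2% mt and 1.43 (1.29 to 1.58), or 2.70-fold, over 30% mt. Over 30% against under 2% mt it was 0.35 (0.22 to 0.47) at 0h and 1.22 (1.04 to 1.39) at PHx48h. These values were 0.41, 0.87, 0.18 and 0.64 with TMM factors, so that the direction held and no ratio reached 2-fold. In marker-rich barcodes the level was 60.5 at 0h and 51.5 at PHx48h.

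Nr1i3 encodes CAR, a nuclear receptor that switches on drug-metabolizing genes. It divided the barcodes by mt share at both times. In the 0h library its level was 49.8 under 2% mt (3925 UMIs, 48.3 to 51.4) and 150.4 over 30% mt (869 UMIs, 141 to 161). In the PHx48h library it was 54.2 (170 UMIs, 46.4 to 63.0) and 170.1 (868 UMIs, 159 to 182). The levels of the libraries overlapped under 2% mt and over 30% mt, while the mt classes were apart. Between mt classes the log2 ratio was 1.59 at 0h (1.49 to 1.70, 3.02-fold) and 1.65 at PHx48h (1.41 to 1.90, 3.14-fold), and 1.43 and 1.07 with TMM factors. Between time points the ratio was 0.12 (-0.11 to 0.34) and 0.18 (0.04 to 0.31), which became -0.03 and -0.38 with TMM factors, so its direction is not settled. In marker-rich barcodes the level was 29.2 and 17.7. Nr1i3 lies on GRCm38 chr1:171213970-171220701, plus strand, and shares 3304 exonic bases with Tomm40l on the opposite strand. Whether counting used strand is not given in the sources used here, so reads of both genes may be mixed. Tomm40l itself was listed at 5.0 and 7.96 CPM at 0h and at 7.02 and 15.9 at PHx48h.

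Nr5a2 encodes LRH-1, a nuclear receptor acting on bile acid and cholesterol genes (GRCm38 chr1:136842571-136960448, minus strand). Its level was 31.5 CPM under 2% mt (2477 UMIs) and 33.4 over 30% mt (193 UMIs, 28.9 to 38.5) at 0h, sets whose intervals overlapped. At PHx48h it was 21.4 (67 UMIs, 16.6 to 27.1) and 51.1 (261 UMIs, 45.1 to 57.7), so that the PHx48h sets lay below and above both 0h sets. The log2 ratio of PHx48h over 0h was -0.56 (-0.93 to -0.21) under 2% mt and 0.61 (0.34 to 0.89) over 30% mt, the latter 0.05 with TMM factors. Between mt classes it was 0.09 (-0.13 to 0.30) at 0h, -0.08 with TMM factors, and 1.26 (0.87 to 1.67) at PHx48h.

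**Figure D2:**
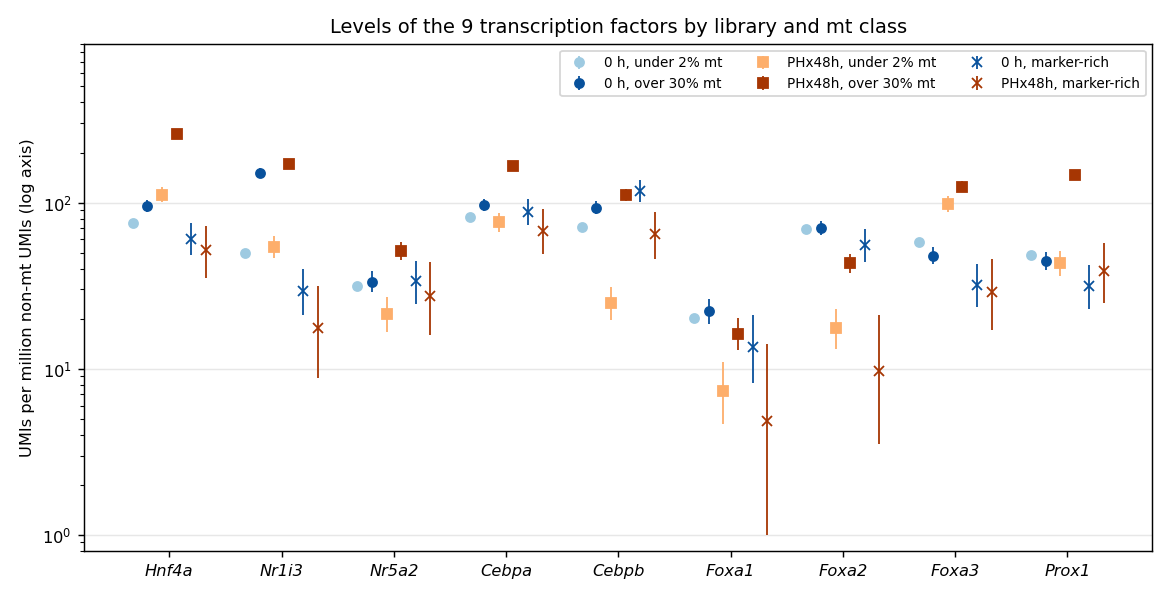
Levels of the 9 genes in CPM of non-mt UMIs (log axis) are plotted for barcodes under 2% mt, over 30% mt and marker-rich in both libraries, with bars for 95% counting intervals. The PHx48h barcodes over 30% mt stand highest for Hnf4a (259), Cebpa (166) and Prox1 (147), and the PHx48h barcodes under 2% mt stand lowest among the 4 mt sets for Cebpb (24.9) and Foxa2 (17.5).

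The C/EBP factors are bZIP proteins. C/EBPα drives metabolic genes and restrains proliferation, and C/EBPβ acts in the acute phase and regenerating liver. Both genes have 1 exon, Cebpa at GRCm38 chr7:35119293-35121928 and Cebpb at chr2:167688915-167690418, both on the plus strand. Because the paralogs moved apart, the 250 bases before their RefSeq start sites (GRCm38.p6) are shown, with capitals for motif matches. Cebpa (chr7:35119043-35119292) holds TATAAA 30 bases before the start. Cebpb (chr2:167688665-167688914) holds 5 matches to GGGCGG, of which 2 overlap.
Cebpa: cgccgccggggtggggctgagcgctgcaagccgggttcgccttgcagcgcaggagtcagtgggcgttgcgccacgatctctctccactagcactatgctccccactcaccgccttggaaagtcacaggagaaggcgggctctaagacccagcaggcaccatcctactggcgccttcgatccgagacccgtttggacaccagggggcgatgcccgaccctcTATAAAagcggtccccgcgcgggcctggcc
Cebpb: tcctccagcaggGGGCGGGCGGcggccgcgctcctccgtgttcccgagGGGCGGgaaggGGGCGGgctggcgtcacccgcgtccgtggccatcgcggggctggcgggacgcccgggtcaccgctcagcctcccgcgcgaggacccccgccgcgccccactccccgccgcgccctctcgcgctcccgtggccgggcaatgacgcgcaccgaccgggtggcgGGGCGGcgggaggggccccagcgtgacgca
Their GC content was 66.4% and 81.6%, against a median of 52.4% over 32841 RefSeq promoters. TATAAA was found in 12.4% of these promoters and GGGCGG in 32.7%, searched on both strands. The other letters searched were CCAAT (33.9% of promoters), AGGTCA (14%), TTGCNNAA (9.57%), GTTAAT (6.43%), TGTTTNC (17.8%) and CAAAGTCCA (0.384%). A match is a description of the sequence only.

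Cebpa was at 81.9 CPM under 2% mt (6446 UMIs, 79.9 to 83.9) and 97.1 over 30% mt (561 UMIs, 89.2 to 105) at 0h. At PHx48h it was at 76.2 (239 UMIs, 66.9 to 86.5) and 166 (846 UMIs, 155 to 177). The sets under 2% mt overlapped, and the PHx48h barcodes over 30% mt stood above the other sets. Over 30% mt the log2 ratio of PHx48h over 0h was 0.77 (0.62 to 0.93), or 0.21 with TMM factors, and under 2% mt it was -0.10 (-0.30 to 0.08). Between mt classes it was 0.25 (0.12 to 0.37) at 0h and 1.12 (0.91 to 1.33) at PHx48h.

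Cebpb was at 71.7 CPM under 2% mt (5647 UMIs, 69.8 to 73.6) and 93.3 over 30% mt (539 UMIs, 85.6 to 101) at 0h. At PHx48h it was at 24.9 (78 UMIs, 19.7 to 31.0) and 111 (569 UMIs, 103 to 121). The PHx48h barcodes under 2% mt were thus far below the other sets. They were 2.88-fold lower than the 0h barcodes under 2% mt (log2 ratio -1.53, -1.87 to -1.21, and -1.68 with TMM factors). Over 30% mt the ratio was 0.26 (0.08 to 0.43), which turned to -0.30 with TMM factors. Within the PHx48h library the barcodes over 30% mt were 4.48-fold higher (2.16, 1.82 to 2.52), against 0.38 (0.25 to 0.51) at 0h. Marker-rich barcodes held 118 CPM at 0h and 64.3 at PHx48h. Cebpb is also expressed in macrophages, so that set is no measure of background for this gene.

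Shares within a family do not depend on the scaling. Cebpa made up 53.3% of the Cebpa and Cebpb UMIs in the 0h barcodes under 2% mt (52.4% to 54.2%) and 51.0% over 30% mt (48.0% to 54.0%). At PHx48h its share was 75.4% (70.3% to 80.0%, of 317 UMIs) and 59.8% (57.2% to 62.4%). The balance was thus alike in the mt classes at 0h and differed between them at PHx48h, with Cebpa at a larger share in both PHx48h sets.

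The FOXA factors are forkhead proteins. FOXA1 and FOXA2 act in liver specification and keep enhancers open, and FOXA3 is a related factor of the adult liver. Foxa1 lies on GRCm38 chr12:57540628-57546916, Foxa2 on chr2:148042877-148046969 and Foxa3 on chr7:19013284-19023538, all on the minus strand. Foxa2 and Foxa3 moved in opposite directions, and their promoters are shown in the same way, for Foxa2 the first of 3 RefSeq entries (chr2:148046970-148047219, minus strand). That of Foxa3 is chr7:19023540-19023789, minus strand.
Foxa2: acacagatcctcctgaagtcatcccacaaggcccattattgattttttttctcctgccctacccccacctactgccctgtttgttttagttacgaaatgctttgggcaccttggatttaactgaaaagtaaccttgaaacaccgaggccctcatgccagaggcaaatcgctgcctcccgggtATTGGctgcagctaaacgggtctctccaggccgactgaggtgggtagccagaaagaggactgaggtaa
Foxa3: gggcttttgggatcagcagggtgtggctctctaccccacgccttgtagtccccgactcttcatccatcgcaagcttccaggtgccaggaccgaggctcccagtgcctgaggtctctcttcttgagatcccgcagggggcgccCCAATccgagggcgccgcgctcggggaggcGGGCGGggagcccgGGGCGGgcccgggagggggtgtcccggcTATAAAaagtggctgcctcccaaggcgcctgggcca
Foxa2 holds 1 match to CCAAT, read as ATTGG, 68 bases before the start. Foxa3 holds CCAAT at 108 bases, GGGCGG at 78 and 64 bases and TATAAA at 36 bases. GC content was 50.8% and 68.8%. The Foxa2 values are those of the first entry only. The second entry had 2 matches to GGGCGG and a GC content of 67.2%. The third entry had 1 match to TATAAA, read as TTTATA, 208 bases before its start, and a GC content of 54.4%. It also had 1 match to GGGCGG, read as CCGCCC, and 1 to GTTAAT, read as ATTAAC, 176 bases before its start. The difference between the Foxa2 and Foxa3 promoters thus depends on the entry shown.

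Foxa2 fell most under 2% mt. Its level was 69.6 CPM under 2% mt (5481 UMIs, 67.8 to 71.5) and 70.3 over 30% mt (406 UMIs, 63.6 to 77.4) at 0h, sets that overlapped. At PHx48h it was 17.5 (55 UMIs, 13.2 to 22.8) and 43.1 (220 UMIs, 37.6 to 49.2), both below the 0h sets. The fall was 3.97-fold under 2% mt (log2 ratio -1.99, -2.40 to -1.61). Over 30% mt the level was 1.63-fold lower (-0.70, -0.95 to -0.46, and -1.27 with TMM factors). Between mt classes the log2 ratio was 0.01 (-0.14 to 0.16) at 0h, -0.15 with TMM factors, and 1.30 (0.87 to 1.75) at PHx48h.

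Foxa1 had fewer UMIs and followed Foxa2 under 2% mt. Its 0h levels were 20.3 CPM under 2% mt (1599 UMIs) and 22.2 over 30% mt (128 UMIs, 18.5 to 26.3). The PHx48h levels were 7.33 (23 UMIs, 4.65 to 11) and 16.3 (83 UMIs, 13 to 20.2), and the latter overlapped the 0h sets. Under 2% mt the level was 2.77-fold lower at PHx48h (-1.47, -2.13 to -0.88). Over 30% mt the log2 ratio was -0.45 (-0.86 to -0.04), or -1.01 with TMM factors. Between mt classes it was 0.13 (-0.15 to 0.39) at 0h, -0.04 with TMM factors, and 1.15 (0.47 to 1.88) at PHx48h.

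Foxa3 went the other way. Its 0h levels were 58.3 CPM under 2% mt (4588 UMIs, 56.6 to 60.0) and 47.9 over 30% mt (277 UMIs, 42.5 to 53.9). Its PHx48h levels were 98.2 (308 UMIs, 87.6 to 110) and 125 (637 UMIs, 115 to 135), so that no interval of a PHx48h set overlapped one of a 0h set. PHx48h over 0h gave a log2 ratio of 0.75 (0.58 to 0.92, 1.69-fold) under 2% mt and 1.38 (1.17 to 1.59, 2.60-fold) over 30% mt, or 0.60 and 0.82 with TMM factors. Between mt classes it was -0.28 (-0.46 to -0.11) at 0h and 0.35 (0.15 to 0.55) at PHx48h, which became -0.23 with TMM factors.

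Within the family, Foxa3 made up 39.3% of Foxa UMIs under 2% mt (38.4% to 40.2%) and 34.2% over 30% mt (30.9% to 37.5%) at 0h. At PHx48h it made up 79.8% (75.4% to 83.7%, of 386 UMIs) and 67.8% (64.7% to 70.7%). The share of Foxa2 was 47.0% and 50.1% at 0h and 14.2% and 23.4% at PHx48h, and that of Foxa1 was 13.7% and 15.8%, then 5.96% and 8.83%. In marker-rich barcodes the Foxa3 share was 31.7% at 0h and 66.7% at PHx48h, the latter of 27 UMIs (46.0% to 83.5%). Foxa UMIs thus came mostly from Foxa2 and Foxa3 at 0h and mostly from Foxa3 at PHx48h, in barcodes of either mt class.

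**Figure D3:**
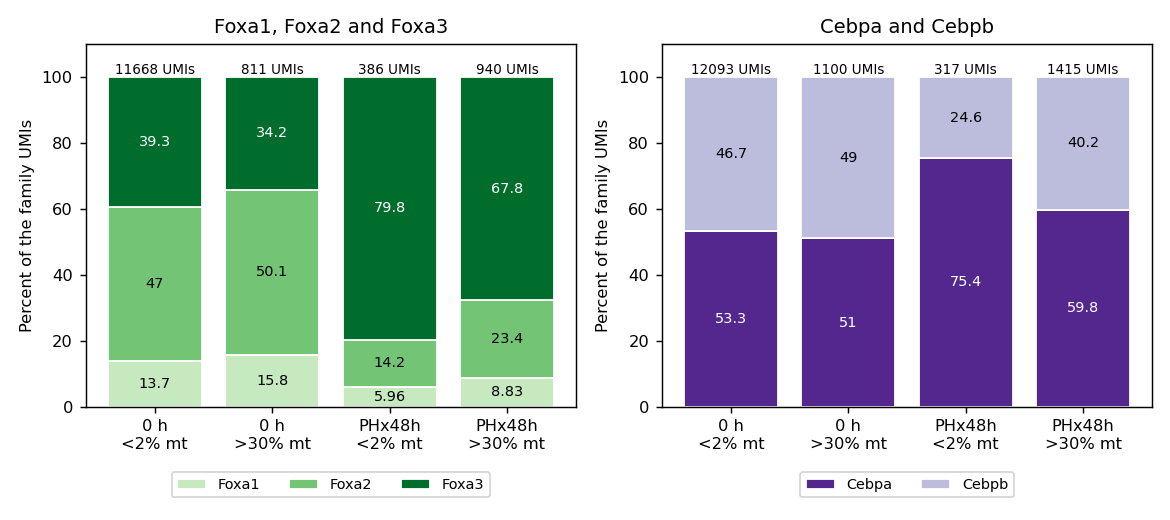
Stacked bars give each paralog's percent of the UMIs of its family in the 4 sets of barcodes, with the Foxa genes in one panel and the Cebp genes in the other. Foxa3 takes 39.3% and 34.2% in the 0h sets and 79.8% and 67.8% in the PHx48h sets, and Cebpa takes 75.4% in the PHx48h barcodes under 2% mt against 51.0% to 59.8% in the other sets.

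Prox1 encodes a homeobox factor of hepatocytes that restrains bile acid synthesis genes, and it is also a marker of lymphatic endothelium (GRCm38 chr1:190118035-190170714, minus strand). Its levels of 48.0 under 2% mt (3781 UMIs) and 44.3 over 30% mt (256 UMIs, 39.0 to 50.1) at 0h, and of 43.0 under 2% mt at PHx48h (135 UMIs, 36.1 to 51.0), had overlapping intervals. The PHx48h barcodes over 30% mt stood alone at 147 (748 UMIs, 136 to 157). Between time points the log2 ratio was -0.16 (-0.42 to 0.09) under 2% mt and 1.73 (1.52 to 1.94, 3.31-fold) over 30% mt. Between mt classes it was -0.12 (-0.30 to 0.07) at 0h and 1.77 (1.5 to 2.04, 3.40-fold) at PHx48h. The called ratios of Prox1 were 1.17 and 1.19 with TMM factors, still above 2-fold.

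Levels were also followed over 7 classes of mt share. In the 0h library, Nr1i3 was at 50 CPM under 0.5% mt, 36.4 at 2% to 10% (30.5 to 43.1), 118 at 10% to 30%, 135 at 30% to 50% and 198 above 50%. In the PHx48h library its levels in these classes were 54.8, 28.7 (19.2 to 41.2), 87.6, 128 and 206. Nr1i3 was thus lowest at 2% to 10% mt in both libraries and highest above 50%. The class of 2% to 10% mt held 383 marker-rich barcodes of 2045 at 0h and 79 of 156 at PHx48h. Prox1 in the same classes was at 46.4, 45.5, 102.5, 134 and 157 at PHx48h and at 48.0, 46.9, 49.9, 44.4 and 44.0 at 0h. Hnf4a at PHx48h was at 103, 94.1, 231, 246 and 271, and Cebpb at 22.1, 54.5, 69.5, 96.1 and 125. Foxa3 at PHx48h went from 104 under 0.5% mt to 93.6 at 0.5% to 1%, 73.8 at 1% to 2% and 61.4 at 2% to 10% (47.1 to 78.7), then stood at 116, 124.5 and 125. Hnf4a and Prox1 at PHx48h thus stepped up between the class of 2% to 10% and that of 10% to 30%, and Foxa3 had its lowest level at 2% to 10%.

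Nuclear RNA and depth differed between the mt classes, by an amount that depended on the RNA. The nuclear RNA Neat1 was at 86.3 CPM under 2% mt and 1289 over 30% mt at 0h, and at 76.8 and 607 at PHx48h. Malat1, also a nuclear RNA, differed less, at 2220 and 4675 at 0h and at 2172 and 2816 at PHx48h. Barcodes over 30% mt without a Neat1 UMI numbered 949 at 0h (24.5%) and 184 at PHx48h (24.1%). In them Nr1i3 was at 132 and 161 CPM, against 155 and 171 in those with Neat1. Prox1 at PHx48h was at 99.9 without and 153 with Neat1, Hnf4a at 199.7 and 268, and Cebpa at 114 and 173. With these barcodes alone, 6 of 9 members were called higher over 30% mt at PHx48h, and Hnf4a and Cebpa, at 0.84 and 0.58, were not called. In this setting 27.1% of all genes were called higher and 8.12% lower. Among barcodes over 30% mt, the shallower ones had 201 CPM of Nr1i3 at 0h and 235 at PHx48h, and the deeper ones 130.3 and 153. The part of depth, nuclear RNA or damage in these differences was not tested.

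**Figure D4:**
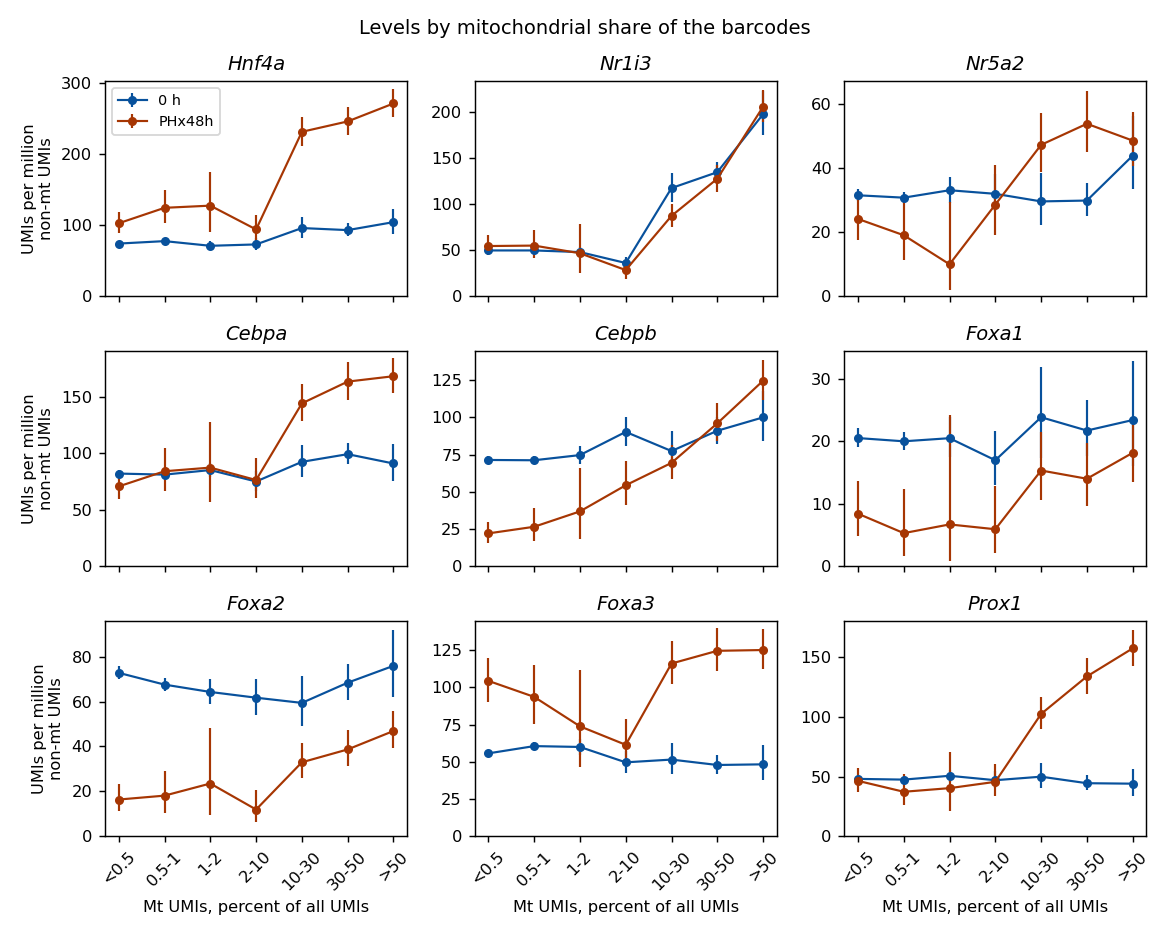
Each panel gives the level of 1 gene in CPM of non-mt UMIs over 7 classes of mt share (percent of all UMIs), with a line for each library and bars for 95% counting intervals. Nr1i3 dips at 2% to 10% mt, to 36.4 at 0h and 28.7 at PHx48h, and reaches 198 and 206 above 50% mt, whereas Prox1 reaches 157 at PHx48h and stays between 44.0 and 50.6 at 0h.

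Detection was compared after each barcode was thinned to 1000 non-mt UMIs, which left out 1399 shallower barcodes over 30% mt at 0h and 4 at PHx48h. At least 1 of the 9 genes was then seen in 39.6% of the 0h barcodes under 2% mt and 46.7% of those over 30% mt. At PHx48h it was seen in 38.1% and 66.0%, and in marker-rich barcodes in 38.1% at 0h and 34.7% at PHx48h. Median depth before thinning was 1413 and 1563 in the 0h sets and 2360.5 in their marker-rich barcodes, and 5271.5, 4428 and 5923 at PHx48h. Over the 9 genes together, the share under 2% mt was close to that of marker-rich barcodes at both times. Single genes differed. At PHx48h the summed level under 2% mt was above that of marker-rich barcodes for Foxa3 (98.2 against 28.9), Hnf4a (112 against 51.5) and Nr1i3 (54.2 against 17.7), with intervals apart. At 0h this held for Foxa3 (58.3 against 32.1), Nr1i3 (49.8 against 29.2) and Prox1 (48.0 against 31.3). Hnf4a (75.5 against 60.5) and Foxa2 (69.6 against 55.6) were higher under 2% mt at 0h, but with overlapping intervals. The intervals of Cebpa, Foxa1, Foxa2 and Nr5a2 overlapped at both times, and Cebpb was lower under 2% mt at both. The levels of these genes under 2% mt thus did not stand clear above the comparison set. Barcodes with at least 3 members were rare, from 0.995% to 5.52% over the 4 sets.

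Detection of Nr1i3 stood above the comparison set over 30% mt. After thinning it was seen in 13.2% of barcodes at 0h (11.9% to 14.6%) and 17.6% at PHx48h (15.0% to 20.5%), against 2.68% (1.47% to 4.46%) and 4.21% (1.16% to 10.4%) of marker-rich barcodes. Hnf4a at PHx48h over 30% mt was seen in 22.2% (19.3% to 25.3%), against 6.32% (2.35% to 13.2%). Under 2% mt the shares were 7.28% for Hnf4a and 4.75% for Nr1i3 at 0h and 9.39% and 5.56% at PHx48h. Cebpb under 2% mt, at 6.85% and 3.26%, lay below its marker-rich shares of 12.8% and 6.32%. The interval of its PHx48h marker-rich share, 2.35% to 13.2%, included 3.26%, so at PHx48h the shares were not apart. The unthinned share of Nr1i3 over 30% mt was 17.3% at 0h and 54.8% at PHx48h, values that carry the depth of the libraries.

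The PHx48h barcodes were divided by at least 1 UMI of Mki67 or Top2a, genes of the G2 and M phases. There were 564 barcodes with such a UMI (35.6%) and 1022 without, and 71.6% of the marker-rich barcodes were among those with. A barcode with 1 UMI is not called a cycling cell. The summed level of 25 proliferation genes, Mki67 and Top2a included, was 1773 CPM with and 696 without. Mki67 and Top2a were at 0 without by definition of the split, and the barcodes without still held RNA of other proliferation genes. Of the 9 members 0 were called higher, where 11.7% of all genes were, and 0 lower, where 1.29% were. These shares were 4.08% and 0.04% among genes with at least 100 UMIs. Hnf4a was at 195 CPM with and 202 without (log2 ratio -0.05, -0.17 to 0.07). Nr1i3 was 1.42-fold lower with such UMIs, at 89.2 with (454 UMIs) and 127 without (807 UMIs), a log2 ratio of -0.51 (-0.68 to -0.34). Cebpa was at 116 and 139.8 (-0.27, -0.42 to -0.12), and Prox1 and Foxa3 both had a ratio of -0.26. Foxa1 was higher with, at 16.5 (84 UMIs) against 9.73 (62 UMIs), or 0.76 (0.27 to 1.26). The intervals of Cebpb, Foxa2 and Nr5a2 included 0.

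The split carried other differences with it. Of the 564 barcodes, 63 of the 150 at 2% to 30% mt were marker-rich, and the summed endothelial markers were 330 CPM with and 116 without, the stromal markers 661 and 202 and the macrophage markers 256 and 103. Without marker-rich barcodes the ratio of Nr1i3 was -0.43 and that of Hnf4a 0.02. Over 30% mt, where the barcodes with were deeper (median 6930 against 3801 non-mt UMIs), Nr1i3 was at 135 and 194 (-0.52, -0.74 to -0.32) and Cebpa at 147 and 178 (-0.28, -0.49 to -0.07). In this class Foxa1 was called higher, at 23.4 (48 UMIs) against 11.5 (35 UMIs), or 1.02 (0.37 to 1.70), where 5.69% of all genes were called higher and 2.51% lower, or 1.28% and 0.119% of those with at least 100 UMIs. Its share of Foxa UMIs was 12.5% (9.36% to 16.2%) with and 6.29% (4.42% to 8.65%) without. After thinning to 3000 non-mt UMIs before the split, Foxa1 rested on 7 against 14 UMIs in this class and was not called. Over 30% mt the 25 proliferation genes, Mki67 and Top2a included, summed to 1769 CPM with and 499 without, and 20 of 25 were called. The difference of Mki67 and Top2a was fixed by the split, in this class and under 2% mt. Under 2% mt the split separated little, with sums of 1563 and 1068 CPM and 2 of 25 called, Mki67 and Top2a again included. The interval of every member included 0 there, and 0 were called, where 4.25% of genes were called higher and 3.74% lower, or 0.107% and 0.0% with at least 100 UMIs. At 2% to 30% mt 0 were called as well, where 14.5% and 1.82% of genes were, or 4.35% and 0.103% with at least 100 UMIs. The ratio of Nr1i3 at 2% to 30% mt was -0.16 (-0.55 to 0.24). Median mt share also differed, at 12.9% with and 37.6% without over all barcodes and 52.3% and 58.6% within over 30% mt. The part of mt share in the difference of Nr1i3 was not tested, nor that of depth beyond the thinned split, which gave -0.55 over 30% mt.

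**Figure D5:**
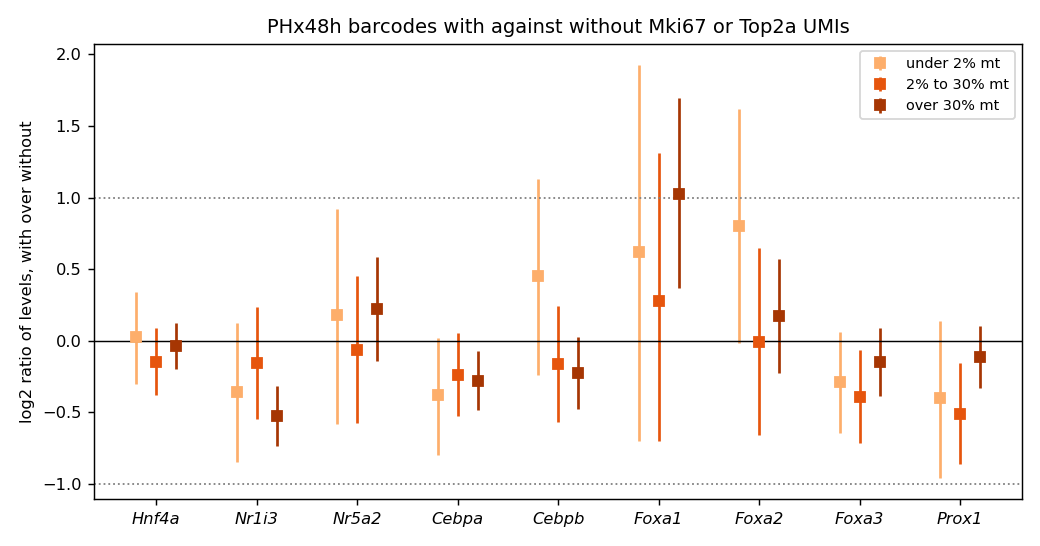
The log2 ratio of PHx48h barcodes with over those without Mki67 or Top2a UMIs is plotted for each gene within 3 classes of mt share, with bars for 95% counting intervals and dotted lines at 2-fold. Nr1i3 is below 0 over 30% mt at -0.52, Hnf4a lies near 0 at -0.04, and Foxa1 reaches 1.02 with a wide interval.

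Other hepatocyte transcription factors were read from a list of 44, of which 43 were in the tables. Under 2% mt, 2 of 42 tested rose from 0h to PHx48h and 12 fell, where 25.4% of all genes were called higher and 17.2% lower, with a median log2 ratio of -0.26. With TMM factors 0 rose and 13 fell, where 22% and 20.3% of all genes did. Over 30% mt 10 rose and 3 fell, where 32.5% and 6.33% of all genes did, with a median of 0.40. With TMM factors 3 rose and 5 fell, where 16.5% and 15% of all genes did, with a median of -0.16. Between mt classes 8 were higher and 0 lower at 0h, where 17.2% and 9.04% of all genes were, or 7 and 0 with TMM factors. At PHx48h 25 were higher and 0 lower, where 37.4% and 6.74% of all genes were, or 12 and 0 with TMM factors. With these factors 14.1% of all genes were higher and 12.7% lower at 0h, and 18% and 18.2% at PHx48h. The lowest ratios under 2% mt were those of the repressor Bcl6 (-4.49, 1 against 566 UMIs) and the clock repressor Nr1d1 (-1.69), and the highest those of the lipid receptor Ppara (1.12) and the xenobiotic receptor Nr1i2 (1.07), which were not called with TMM factors. Over 30% mt, Onecut1 (-2.04) and Hhex (-1.88), both factors of liver development, fell, and Foxo1 (1.69), an effector of insulin signaling, rose. Mlxipl, the carbohydrate-responsive factor ChREBP, showed the widest gap of the list between mt classes at 0h, 2.77 (2.70 to 2.85), and was at 3.13 (2.78 to 3.51) at PHx48h.

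Lists of known targets of the members were read against the same shares of all genes, 25.4% called higher and 17.2% lower under 2% mt and 32.5% and 6.33% over 30% mt. For counts with TMM factors these shares were 22% and 20.3% under 2% mt and 16.5% and 15% over 30% mt. Of 12 HNF4A targets, 0 rose and 5 fell under 2% mt and 0 rose and 4 fell over 30% mt, or 0 and 6 with TMM factors, with medians of -0.51 and -0.59, while Hnf4a itself was at 0.56 and 1.43. The bile acid hydroxylase Cyp8b1 had the lowest ratio, from 489 to 16.9 CPM under 2% mt (-4.85) and from 451 to 53.3 over 30% mt (-3.08), and Apob, the apolipoprotein of secreted lipoproteins, was at -2.08 under 2% mt. Of the 12 HNF4A targets, 4 had a ratio above 0 in each mt class. Of 7 LRH-1 targets, 0 rose and 2 fell under 2% mt, and 1 rose and 1 fell over 30% mt, or 0 and 2 with TMM factors. The 1 that rose was Cyp7a1, the rate-limiting enzyme of bile acid synthesis, at 1.14. Of 9 CAR targets tested, 3 rose and 4 fell under 2% mt and 5 rose and 3 fell over 30% mt. Among them Cyp2c37 fell in both (-3.32 and -2.62), and Alas1, the first enzyme of heme synthesis, was at 2.69 under 2% mt.

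Of 6 metabolic C/EBP targets, 0 rose and 3 fell under 2% mt, and 2 rose and 1 fell over 30% mt, with a median of 0.45, or 0 and 1 with a median of -0.11 with TMM factors. The glucose-releasing enzyme G6pc fell in both (-3.96 and -2.14), whereas Pck1, of gluconeogenesis, was at 0.85 and 1.51. Of 8 acute phase targets, 5 rose and 1 fell under 2% mt and 4 rose and 0 fell over 30% mt, or 4 and 2 with TMM factors. Lcn2 (7.85 and 6.91) and Saa2 (6.98 and 5.62) had the highest ratios, and Fgb, a fibrinogen chain, was the 1 that fell under 2% mt (-1.25). Of 6 FOXA targets, 0 rose and 3 fell under 2% mt. Over 30% mt 2 rose and 0 fell, a share near that of all genes, and with TMM factors 0 rose and 1 fell. Some targets stood in more than 1 list, and whether they follow these members was not tested.

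The genes most like each member over the 4 sets were sought among 2303 genes with at least 100 UMIs in each set, by the Euclidean distance between log2 levels centered on their mean. The nearest were Mtss1 for Hnf4a (0.0987), Mpnd for Nr1i3 (0.257), Ahsg for Nr5a2 (0.104), Frrs1 for Cebpa (0.0935), Tfr2 for Cebpb (0.253), Hacd3 for Foxa1 (0.0675), Grn for Foxa2 (0.134), Coq9 for Foxa3 (0.0997) and Vars for Prox1 (0.270). No other member was among the 3 nearest genes of any member, although Cebpb, Foxa1, Foxa2 and Nr5a2, with fewer than 100 UMIs in a set, could not be. With 4 points per gene, this likeness describes the sets and carries no test.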

How the data were processed

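Hepatocyte scRNA-Seq was done on the 10X Chromium 3′ platform, with 1 library for each of the 0h and PHx48h groups, taken from the labels. The authors processed reads with Cell Ranger against mm10, as named in the submitters' processing notes, and deposited whole-number UMI counts per gene and barcode without normalization. The Cell Ranger version, the annotation, the use of strand and the thresholds of the authors' filters are not given in the sources used here. No barcode was removed here and no doublet caller was run, so doublets may remain.

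Members and lists were chosen with earlier results of these data known. Counts were summed over barcodes under 2% or over 30% mt UMIs and scaled to counts per 1000000 non-mt UMIs (CPM). Ratios were called at 2-fold (log2 of 1) with at least 10 UMIs over both sets. A gene at 0 in 1 set was placed at a floor of 3 counts there, unless that floor lay above the other set, which gave no direction. Named genes were all 9 members, the 2 highest and 2 lowest ratios of each other list per comparison among genes with at least 10 UMIs, and the 3 nearest genes of each member. Some further list genes (Apob, Apoa1, Pck1, Cyp7a1 and Saa2 among them) were named after their values were seen. Intervals were exact at 95%. The computation used Python 3.11.15, NumPy 2.4.6, SciPy 1.17.1, pandas 2.3.3 and Matplotlib 3.10.9, with R 4.3.3 and edgeR 4.0.16 for TMM factors only, without a test. Ratios and calls were tested on simulated data. Coordinates came from GENCODE M21 (GRCm38) and promoters from RefSeq (GRCm38.p6), in which all 9 members matched. Alternatives were other scalings, mt limits, depth minimums, filters, equal weights per barcode, and leaving out marker-rich, shared or Neat1-containing barcodes.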

Additional observations from a re-analysis of the deposited data

Results flagged for a closer look

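The genes Cebpb, Nr5a2 and Foxa3 had ratios on opposite sides of 0 in 2 parallel comparisons, a contrast that was not tested because each set comes from 1 library. The log2 ratio of PHx48h over 0h for Cebpb was -1.53 under 2% mt and 0.26 over 30% mt, and that for Nr5a2 was -0.56 and 0.61. With TMM factors the second value was -0.30 for Cebpb and 0.05 for Nr5a2, so Cebpb was then below 0 in both classes. The log2 ratio of barcodes over 30% against under 2% mt for Foxa3 was -0.28 at 0h and 0.35 at PHx48h, and -0.45 and -0.23 with TMM factors, on the same side of 0.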

How the results depend on the processing

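No paired analysis was possible because each group is 1 library, and no replicate could be left out for the same reason. Scaling mattered most. With TMM factors 1 member rose and 2 fell from 0h to PHx48h over 30% mt, where 16.5% and 15% of all genes did. With these factors 3 were higher over 30% mt at PHx48h, where 18% of all genes were. With CPM of all UMIs, mt included, 0 were higher and 1 lower over 30% mt at 0h and 1 was higher at PHx48h, where Cebpa turned to -0.00774. Of all genes, 5.37% were then higher and 38.6% lower at 0h, and 7.54% and 32.7% at PHx48h. That scaling lowers every gene in barcodes rich in mt UMIs by construction. Within over 30% mt, 1 member was higher in barcodes with Mki67 or Top2a UMIs at a limit of 1 UMI, and 1 with at least 2, a setting chosen after seeing the data. At these limits 5.69% and 6.77% of all genes were called higher. The Cebpa share over 30% mt at 0h was 47.6% with a limit of 50% mt. The share of barcodes with at least 1 member, thinned to 500, thinned to 3000 and not thinned, was 22.0%, 79.6% and 52.1% at 0h under 2% mt, 28.0%, 81.8% and 56.0% at 0h over 30% mt, 22.4%, 71.6% and 91.2% at PHx48h under 2% mt, and 42.0%, 94.8% and 95.4% at PHx48h over 30% mt. Of 495 single-gene values recomputed, 406 stayed within their counting interval, 88 moved beyond it and 1 changed sign as a called value. Of 110 counts recomputed, 8 moved. Leaving out barcodes shared by the libraries or with Neat1 UMIs, and the other gene lists with TMM factors, were chosen after seeing the data. Depth limits Foxa1 most, with 23 UMIs in the PHx48h barcodes under 2% mt.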
